A study of Mus musculus with 18 samples.

Results

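Ccl17, Ccl22, Ccl24, Ccl6 and Ccl9 are CC chemokine genes, either tied to type 2 immunity or made steadily by myeloid cells. They were taken by symbol from the gene annotation, and these 5 genes were among 55536 genes counted and among 21 CC chemokine genes in the family list. All 5 passed the filter on low counts. Their transcripts were measured by bulk, poly(A)-selected RNA sequencing of mouse bone marrow cells after 4 days of culture.

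The 18 libraries form 6 groups of 3, and each library was made from the pooled cells of 3 mice. The donors were BALB/c mice that were either Cysltr1 deficient (Cysltr1-/- below) or WT. Cysltr1 encodes a receptor for cysteinyl leukotrienes. Every culture held 40 ng/mL GM-CSF, the growth factor used to raise macrophages, dendritic cells and granulocytes from marrow. For each genotype, 1 group had in addition 50% by volume of medium conditioned for 24 h by EMT6 cells, a BALB/c mammary carcinoma line, 1 group had 40 ng/mL IL-6, and 1 group had GM-CSF alone. The labels do not describe the mutant allele, and no cells were sorted. Nor do they say if a group's 3 libraries stem from different pools of mice, so p-values measure the spread between these libraries, which may be partly technical.

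CCL17 and CCL22 are ligands of CCR4 and are made mostly by dendritic cells and alternatively activated macrophages. They attract T helper 2 cells and regulatory T cells. CCL24 is an eotaxin, which attracts eosinophils through CCR3, and it is another product of alternatively activated macrophages. CCL6 and CCL9 are rodent chemokines that bind CCR1 and are made constitutively by many myeloid cells. In bulk RNA, fewer cells of a type and less RNA per cell cannot be told apart.

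Libraries held 9583728 to 31989342 gene counts. The EMT6-medium libraries stood apart. Reads outside annotated exons made up 50.2 ± 0.152% of reads in Cysltr1-/- cultures with EMT6 medium and 36.2 ± 1.39% in WT cultures with it (SD, n = 3 each), against group means of 14.2 to 19.5% elsewhere. Cysltr1 itself was not lower in the libraries labelled Cysltr1-/-. It averaged 7.33, 89.6 and 77.0 CPM in Cysltr1-/- cultures with EMT6 medium, IL-6 and GM-CSF alone, against 4.08, 80.7 and 60.5 CPM in the same WT cultures. Counts over the whole gene therefore did not check the genotype labels, and each genotype difference below is one between libraries labelled Cysltr1-/- and libraries labelled WT. CPM here is a gene's count per 1000000 gene counts after TMM scaling, which corrects for differences in library composition.

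Ccl17 varied most among the members. In Cysltr1-/- cultures with EMT6 medium the 3 libraries had 1.04, 2.02 and 0.975 CPM. Cysltr1-/- cultures with IL-6 had 45.7, 46.1 and 48.1 CPM. Cysltr1-/- cultures in GM-CSF alone had 137, 138 and 146 CPM. The 3 culture conditions did not overlap. WT cultures held less in each condition. Their Ccl17 was 0.802, 0.549 and 0.530 CPM with EMT6 medium. It was 12.9, 13.9 and 13.8 CPM with IL-6. Under GM-CSF alone it was 75.9, 75.7 and 91.4 CPM. Ordered by mean, the 6 groups ran from Cysltr1-/- in GM-CSF through WT in GM-CSF, Cysltr1-/- with IL-6, WT with IL-6 and Cysltr1-/- with EMT6 medium to WT with EMT6 medium, and no neighbouring groups overlapped. How often groups were this separate among all genes was not counted. The EMT6-medium values rest on 14 to 27 counts per Cysltr1-/- library and 9 to 17 counts per WT library. Unassigned reads, spread evenly over the genome outside exons, would give a gene of this length 3.68 to 4.83 counts in those Cysltr1-/- libraries and 2.66 to 3.01 counts in those WT libraries.

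Ccl22, the other CCR4 ligand, followed the same order of cultures within each genotype. It had 12.7, 12.6 and 9.55 CPM in Cysltr1-/- cultures with EMT6 medium, 217, 213 and 216 CPM with IL-6, and 454, 459 and 458 CPM in GM-CSF alone. The corresponding WT libraries had 9.38, 10.3 and 8.85 CPM with EMT6 medium, 70.5, 76.5 and 72.6 CPM with IL-6, and 176, 173 and 172 CPM in GM-CSF alone. Here Cysltr1-/- cultures with IL-6 lay above WT cultures in GM-CSF alone, which was the reverse of Ccl17. Only the 2 groups with EMT6 medium overlapped. As for Ccl17, how often groups were this separate among all genes was not counted.

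Ccl24 was a lower transcript. It averaged 5.77 ± 0.452 CPM in Cysltr1-/- cultures with EMT6 medium, 35.4 ± 1.59 CPM with IL-6 and 37.0 ± 4.01 CPM in GM-CSF alone (SD, n = 3 each). WT cultures averaged 4.13 ± 0.972 CPM with EMT6 medium, 24.6 ± 0.849 CPM with IL-6 and 46.3 ± 2.24 CPM in GM-CSF alone. WT in GM-CSF alone was thus the highest group for this gene. The Cysltr1-/- groups with IL-6 and in GM-CSF alone overlapped.

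Ccl6 was the most abundant member. It averaged 819 ± 56.6 CPM in Cysltr1-/- cultures with EMT6 medium, 4989 ± 116 CPM with IL-6 and 5503 ± 169 CPM in GM-CSF alone, against 1449 ± 80.6, 6183 ± 198 and 6146 ± 118 CPM in the same WT cultures (SD, n = 3 each). Ccl9 averaged 401 ± 19.4, 1282 ± 6.05 and 1336 ± 28.9 CPM in those Cysltr1-/- cultures, against 733 ± 19.3, 1062 ± 32.1 and 1078 ± 4.49 CPM in the WT cultures. For both genes the WT groups with IL-6 and in GM-CSF alone overlapped. Both EMT6-medium groups lay below every other library, and the share of all genes with such a separation was not counted.

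**Figure D1:**
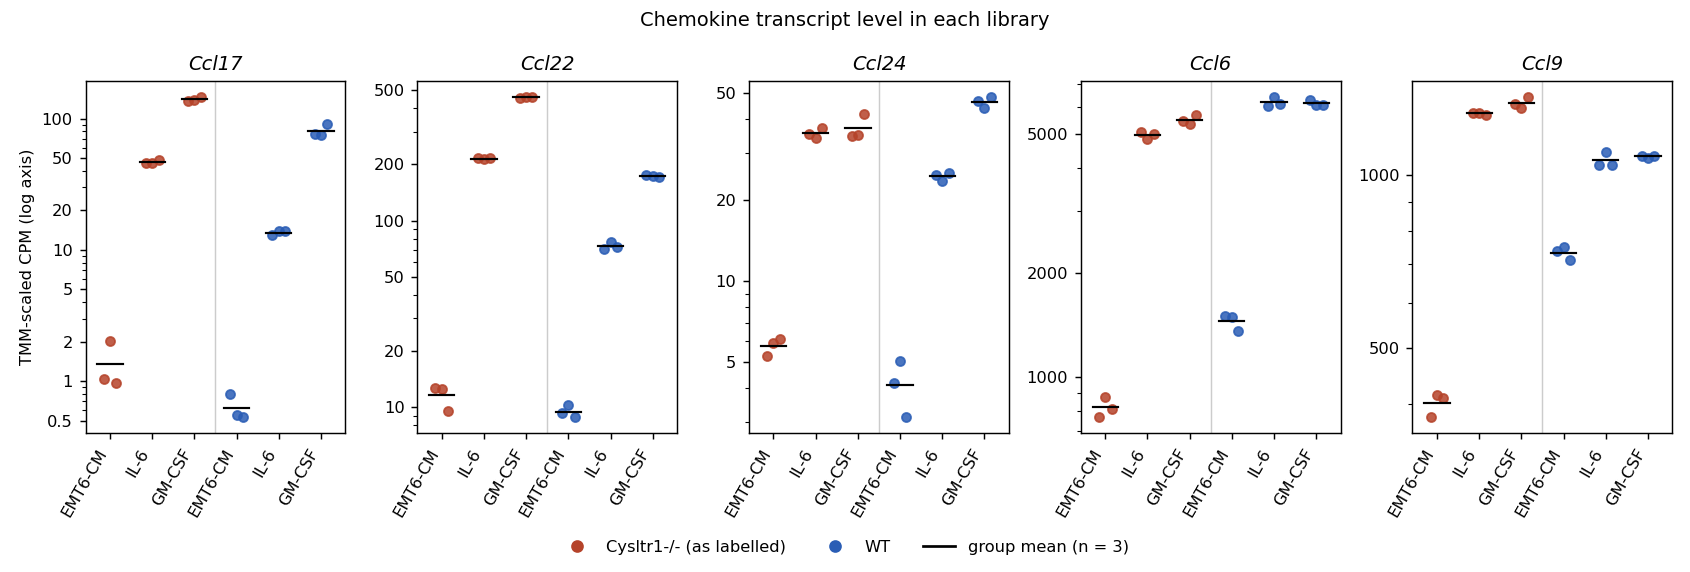
TMM-scaled CPM of each member (log axis, own scale per gene) in every library, by culture and by labelled genotype; bars are group means of 3 libraries. Ccl17 spans 0.530 to 146 CPM, while Ccl9 spans 379 to 1368 CPM.

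Per kilobase of exon, Ccl6 was the leading CC chemokine transcript wherever EMT6 medium was absent. It made up 70.0% of the summed CPM per kilobase of the 21 genes in Cysltr1-/- cultures with IL-6 and 71.4% in Cysltr1-/- cultures in GM-CSF alone, against 81.4% and 80.3% in WT. The 5 members together made up 85.9 ± 0.536% and 93.2 ± 0.187% in those Cysltr1-/- groups, against 91.5 ± 0.0996% and 94.8 ± 0.189% in WT (SD, n = 3 each). With EMT6 medium the 5 members made up 20.1 ± 1.19% in Cysltr1-/- cultures and 22.3 ± 0.258% in WT cultures. Ccl3, an inflammatory chemokine, then held 63.4% in Cysltr1-/- cultures and 64.7% in WT cultures. The sum over the family differed less. It was 2989, 3968 and 4293 CPM per kilobase in Cysltr1-/- cultures with EMT6 medium, IL-6 and GM-CSF alone, against 4741, 4231 and 4266 in the same WT cultures.

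**Figure D2:**
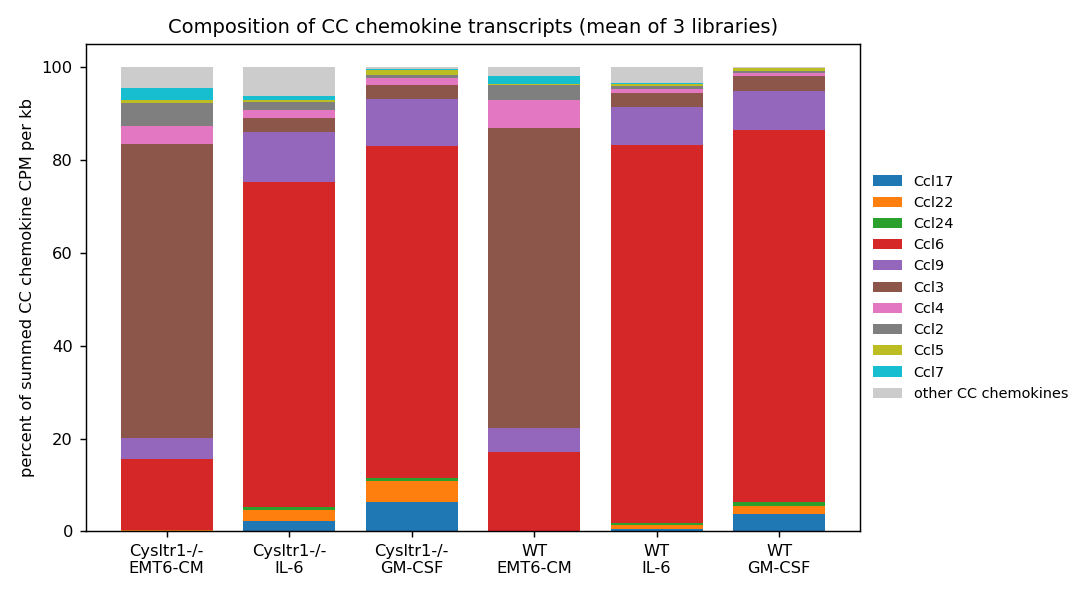
Percent of the summed CPM per kilobase of exon of 21 CC chemokine genes held by each gene, as the mean of 3 libraries per group. Ccl6 (red) holds 70.0 to 81.4% without EMT6 medium, and Ccl3 (brown) holds 63.4 and 64.7% with it.

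The first question was how EMT6-conditioned medium compared with GM-CSF alone. All 5 members fell in both genotypes, the CCR4 ligands by most. Ccl17 was 107-fold lower in Cysltr1-/- cultures (log2 change -6.74 ± 0.12, SE, edgeR adjusted p = 3.20e-39) and 126-fold lower in WT cultures (-6.98 ± 0.13, edgeR adjusted p = 6.09e-38). Ccl22 was 39.2-fold lower in Cysltr1-/- cultures (-5.29 ± 0.07) and 18.3-fold lower in WT cultures (-4.20 ± 0.07). These changes were larger than the spread between replicates.

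Of all 28334 genes tested with edgeR at an adjusted p of 0.05, 87.2% were called in Cysltr1-/- cultures and 81.3% in WT cultures, with 54.3% higher and 32.9% lower in Cysltr1-/- and 46.8% higher and 34.5% lower in WT. Among genes with a mean of at least 5 CPM, 69.3% and 71.9% were lower, with a median log2 change of -0.62 and -0.57. The median of the members was -2.75 in Cysltr1-/- cultures and -3.50 in WT cultures, beside medians over all genes of 0.83 and 0.49. The share of these genes called lower depends on the scaling. It was 43.1% in Cysltr1-/- and 45.9% in WT with library totals alone, with 43.0% and 36.7% higher, and it reached 78.1% and 77.1% under other alternatives. In a refit of only those genes with a group mean of at least 5 CPM, the median over all genes tested was -0.02 in Cysltr1-/- and 0.01 in WT, and that of the members -2.42 and -3.11. All 5 members were called lower in that refit in both genotypes.

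Ccl6, the CCR1 ligand, changed by -2.75 ± 0.05 on the log2 scale in Cysltr1-/- cultures and by -2.08 ± 0.05 in WT cultures. For the eotaxin gene Ccl24 the changes were -2.68 ± 0.10 and -3.50 ± 0.10. Ccl9 moved least, by -1.74 ± 0.05 in Cysltr1-/- cultures and by -0.56 ± 0.04 in WT cultures (edgeR adjusted p = 4.43e-15). That WT call was lost when libraries were scaled by their totals alone (-0.06, edgeR adjusted p = 0.148). The same scaling gave Ccl17 -6.12, Ccl22 -4.68, Ccl6 -2.13, Ccl24 -2.07 and Ccl9 -1.12 in Cysltr1-/- cultures, all still called lower, and it raised the median of all genes by 0.61 in Cysltr1-/- and by 0.49 in WT.

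Genotypes differed in how far the members fell, by a test of the interaction itself, which called 25.6% of all genes (13.2% above 0 and 12.3% below). Among genes with a mean of at least 5 CPM, 21.1% were called above 0 and 28.9% below. Scaling by library totals alone gave 31.0% and 20.4%. The change in Cysltr1-/- minus that in WT was -1.18 ± 0.06 for Ccl9, -1.10 ± 0.11 for Ccl22 and -0.66 ± 0.07 for Ccl6 on the log2 scale (edgeR adjusted p = 2.40e-19, 2.25e-11 and 9.01e-11), so these fell further in Cysltr1-/- cultures. For Ccl24 it was 0.82 ± 0.16 (edgeR adjusted p = 8.96e-05), so it fell less there. For Ccl17 the difference was 0.24 ± 0.32 (95% interval -0.40 to 0.88, edgeR adjusted p = 0.637). A difference within that interval was not detectable at 9 to 27 counts per library.

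Dendritic cell markers were lower in sum with EMT6 medium in both genotypes. Their summed level was 276 to 311 CPM in Cysltr1-/- cultures with EMT6 medium against 2027 to 2080 CPM in GM-CSF alone, and 351 to 358 CPM against 2313 to 2410 CPM in WT. Of 10 markers, 8 were lower and 2 were higher in each genotype. Among genes with a mean of at least 5 CPM, 69.3% were lower in Cysltr1-/- and 71.9% in WT. Itgax, which encodes the integrin CD11c, fell by 4.74 on the log2 scale in Cysltr1-/- cultures and by 4.15 in WT cultures. Summed monocyte and macrophage markers were 1249 to 1430 CPM against 2507 to 2587 CPM in Cysltr1-/-, and 2209 to 2360 CPM against 3211 to 3456 CPM in WT. With library totals alone, 4 of these 10 genes were higher and 4 lower in Cysltr1-/-. Neutrophil markers were lower in the same libraries, at 1065 to 1343 CPM with EMT6 medium against 4311 to 4566 CPM in GM-CSF alone in Cysltr1-/-, and 1812 to 2073 CPM against 9236 to 10302 CPM in WT. In Cysltr1-/- 9 of 10 were lower and 1 was higher, with a median log2 change of -2.25, and in WT all 10 were lower, with a median of -3.01. B cell markers were higher, at 221 to 241 CPM against 93.6 to 95.2 CPM in Cysltr1-/- and 362 to 387 CPM against 141 to 148 CPM in WT, for 6 of 6 genes in each. Epithelial and fibroblast markers summed to 87.8 to 123 CPM against 1081 to 1110 CPM in Cysltr1-/- and to 68.7 to 72.8 CPM against 827 to 886 CPM in WT, although 7 of 8 and 6 of 8 genes were called higher. Eosinophil markers summed to 535 to 604 CPM against 183 to 204 CPM in Cysltr1-/- and to 857 to 966 CPM against 636.9 to 719.5 CPM in WT. The genes of that list divided. Of 8, 3 were higher and 3 lower in Cysltr1-/- (median log2 change -0.20), and 3 higher and 5 lower in WT (median -0.96). Mast cell and basophil markers were at 165 to 167 CPM against 274 to 278 CPM in Cysltr1-/-, and at 200.2 to 203 CPM against 415 to 432 CPM in WT. The part of these marker changes in the members' changes was not tested. With the expected unassigned reads subtracted from every gene, the change with EMT6 medium was -6.78 for Ccl17 and -5.14 for Ccl22 in Cysltr1-/-, and -7.13 and -4.04 in WT.

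EMT6 medium was also compared with IL-6. All 5 members were lower with EMT6 medium in both genotypes, beside 86.2% of genes called in Cysltr1-/- cultures (53.8% higher, 32.4% lower) and 81.8% in WT cultures (48.1% higher, 33.8% lower). Among genes with a mean of at least 5 CPM, 68.9% were lower in Cysltr1-/- and 70.8% in WT, with median log2 differences of -0.58 and -0.57. Scaling by library totals alone gave 42.1% and 45.4% lower. In Cysltr1-/- cultures the log2 differences were -5.15 for Ccl17, -4.21 for Ccl22, -2.63 for Ccl24, -2.61 for Ccl6 and -1.68 for Ccl9. WT cultures gave -4.40 for Ccl17, -2.95 for Ccl22, -2.59 for Ccl24, -2.09 for Ccl6 and -0.53 for Ccl9. The value for Ccl9 in WT lost its call when libraries were scaled by their totals (-0.03, edgeR adjusted p = 0.430).

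Adding IL-6 to GM-CSF lowered the CCR4 ligands in both genotypes while the 95% intervals of the CCR1 ligands all lay between -0.24 and 0.10 on the log2 scale. Ccl17 was 3.00-fold lower in Cysltr1-/- cultures (log2 change -1.59 ± 0.06, edgeR adjusted p = 8.84e-24) and 6.01-fold lower in WT cultures (-2.59 ± 0.07, edgeR adjusted p = 5.71e-29). Ccl22 was 2.12-fold lower in Cysltr1-/- cultures (-1.09 ± 0.05) and 2.37-fold lower in WT cultures (-1.25 ± 0.05). Of all genes tested, 14.3% were called in Cysltr1-/- cultures (5.55% higher, 8.78% lower) and 21.7% in WT cultures (10.4% higher, 11.3% lower). Of the 5 members, 3 were called lower in each genotype.

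The third member called was Ccl24 in WT and Ccl6 in Cysltr1-/-. Ccl24 was 1.89-fold lower with IL-6 in WT cultures (-0.92 ± 0.07, edgeR adjusted p = 3.59e-14). In Cysltr1-/- cultures its change was -0.06 ± 0.07 (95% interval -0.20 to 0.09, edgeR adjusted p = 0.716). Ccl6 changed by -0.14 ± 0.05 in Cysltr1-/- cultures (edgeR adjusted p = 0.0350), a call that was lost without Cysltr1-/- GM-CSF replicate 1 or 3 or Cysltr1-/- IL-6 replicate 2 or 3, and with expected unassigned reads subtracted (edgeR adjusted p up to 0.223 among the left-out libraries). In WT cultures Ccl6 changed by 0.01 ± 0.05 (95% interval -0.09 to 0.10). Ccl9 changed by -0.06 ± 0.04 in Cysltr1-/- cultures (95% interval -0.15 to 0.03) and by -0.02 ± 0.04 in WT cultures (95% interval -0.11 to 0.07).

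**Figure D3:**
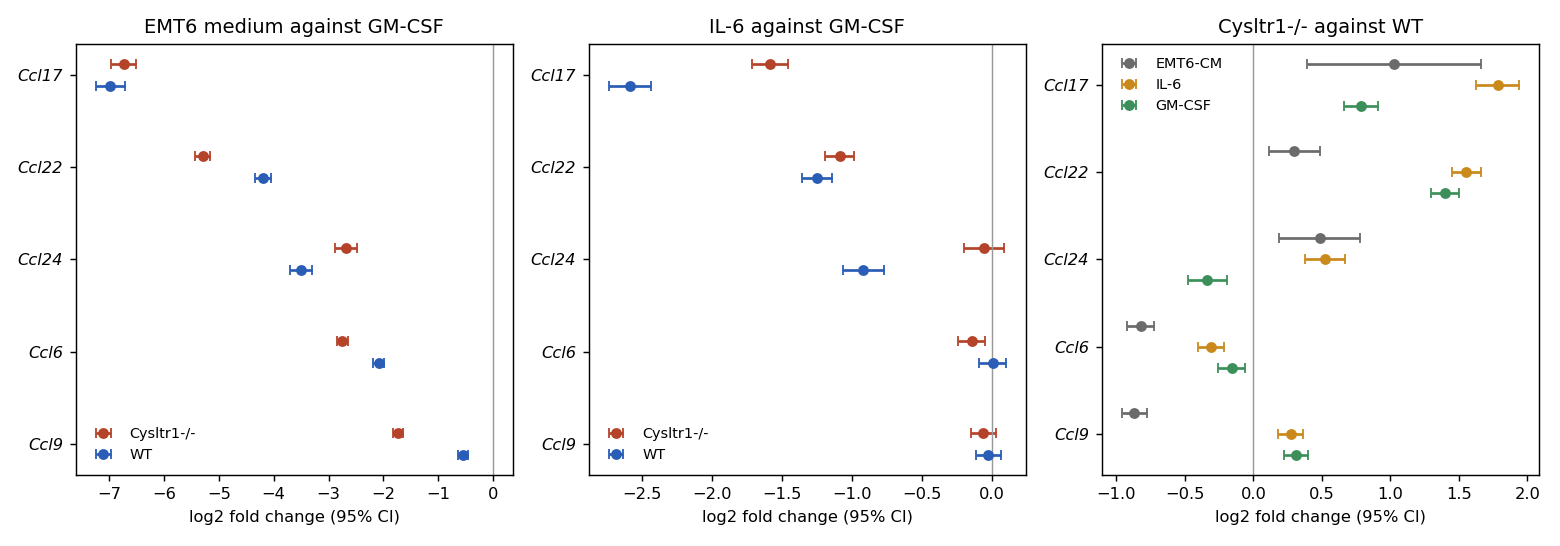
Log2 fold change of each member with its 95% confidence interval, for EMT6 medium against GM-CSF, IL-6 against GM-CSF (each in Cysltr1-/- and WT) and Cysltr1-/- against WT in each culture. Points left of 0 are lower in the group named first; Ccl17 is at -6.74 and -6.98 with EMT6 medium.

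The effect of IL-6 differed by genotype for Ccl17 and Ccl24. The interaction was 1.00 ± 0.10 for Ccl17 (edgeR adjusted p = 3.39e-10) and 0.86 ± 0.10 for Ccl24 (edgeR adjusted p = 2.21e-08), so both fell less in Cysltr1-/- cultures. It was called for 7.38% of all genes (2.92% above 0 and 4.46% below). Among genes with a mean of at least 5 CPM, it was called above 0 for 6.25% and below 0 for 10.8%. For Ccl22 it was 0.16 ± 0.07 (95% interval 0.01 to 0.31, edgeR adjusted p = 0.212). For Ccl6 it was -0.15 ± 0.07 (edgeR adjusted p = 0.202), and for Ccl9 -0.04 ± 0.06 (edgeR adjusted p = 0.829). The values for Ccl22 and Ccl6 came under the threshold in some alternatives, which are given with the processing.

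Dendritic cell markers were lower with IL-6 as well, at 1475 to 1532 CPM in Cysltr1-/- cultures against 2027 to 2080 CPM in GM-CSF alone, and at 1473 to 1535 CPM in WT cultures against 2313 to 2410 CPM. In Cysltr1-/- cultures 8 of 10 were lower and 1 was higher, and in WT cultures 8 were lower. Among genes with a mean of at least 5 CPM, 20.2% were lower in Cysltr1-/- and 23.7% in WT. Cd209a, a lectin gene of monocyte-derived dendritic cells, changed by -2.21 in Cysltr1-/- cultures and by -1.87 in WT cultures on the log2 scale. H2-Ab1, an MHC class II gene, changed by -0.70 and -0.88. Neutrophil markers were lower too, at 2364 to 2444 CPM with IL-6 against 4311 to 4566 CPM in GM-CSF alone in Cysltr1-/-, and at 5955 to 6177 CPM against 9236 to 10302 CPM in WT. In each genotype 8 of 10 were lower and 2 were higher, with a median log2 change of -1.02 in Cysltr1-/- and -0.99 in WT. The median of the dendritic cell markers was -0.51 and -0.37. The part of either list in the change of Ccl17 and Ccl22 was not tested.

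Labelled genotype was compared within each culture. Ccl22 was 2.63-fold higher in Cysltr1-/- than in WT cultures in GM-CSF alone (log2 difference 1.40 ± 0.05, edgeR adjusted p = 7.22e-26) and 2.94-fold higher with IL-6 (1.56 ± 0.05, edgeR adjusted p = 1.05e-26). Ccl17 was 1.72-fold higher in GM-CSF alone (0.78 ± 0.06, edgeR adjusted p = 1.34e-14) and 3.44-fold higher with IL-6 (1.78 ± 0.08, edgeR adjusted p = 7.67e-23). In neither culture did the Cysltr1-/- and WT libraries overlap for these genes. The share of all genes without such overlap was not counted. Genotype called 27.3% of all genes in GM-CSF alone (10.1% higher, 17.2% lower) and 30.5% with IL-6 (12.1% higher, 18.4% lower). Among genes with a mean of at least 5 CPM, 17.8% were higher and 37.9% lower in GM-CSF alone, and 12.35% and 41.8% with IL-6. Scaling by library totals alone gave 30.4% higher and 25.1% lower in GM-CSF alone, and 28.1% and 23.3% with IL-6.

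Ccl24 turned with the culture. It was lower in Cysltr1-/- cultures in GM-CSF alone (-0.34 ± 0.07, edgeR adjusted p = 0.000137) and higher with IL-6 (0.52 ± 0.07, edgeR adjusted p = 1.45e-07). The interaction given above is the test of that turn. Ccl9 was higher in Cysltr1-/- cultures by 0.31 ± 0.04 in GM-CSF alone and by 0.27 ± 0.04 with IL-6. Its fellow CCR1 ligand Ccl6 was lower with IL-6, by -0.31 ± 0.05 (edgeR adjusted p = 9.51e-07). In GM-CSF alone Ccl6 differed by -0.16 ± 0.05 (edgeR adjusted p = 0.00796), a call that did not hold under 5 of the alternatives. Over the 5 members, 3 were called higher and 2 lower in GM-CSF alone, and 4 higher and 1 lower with IL-6.

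With EMT6 medium, genotype called 52.1% of all genes, 32.3% as higher in Cysltr1-/- and 19.8% as lower. Of the genes with a mean of at least 5 CPM, 16.27% were higher and 45.76% lower. Those shares became 39.81% and 19.99% with library totals alone. The CCR1 ligands were lower in Cysltr1-/- cultures, Ccl9 by -0.87 ± 0.05 (edgeR adjusted p = 6.52e-20) and Ccl6 by -0.82 ± 0.05 (edgeR adjusted p = 3.58e-18). The other 3 members were called higher from few counts. Ccl17 differed by 1.03 ± 0.31 (edgeR adjusted p = 0.00616), which fell to 0.55 (edgeR adjusted p = 0.196) without Cysltr1-/- EMT6-medium replicate 2. Ccl24 differed by 0.48 ± 0.15 (edgeR adjusted p = 0.00528), which lost its call without WT replicate 1 or 3 or Cysltr1-/- replicate 2 or 3, with values down to 0.31. Ccl22 differed by 0.30 ± 0.09 (edgeR adjusted p = 0.00669), which lost its call without WT replicate 1 or 3 or Cysltr1-/- replicate 1 or 2, with values down to 0.11.

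Neutrophil markers differed by labelled genotype in the same libraries. They summed to 4311 to 4566 CPM in Cysltr1-/- cultures in GM-CSF alone, against 9236 to 10302 CPM in WT, and to 2364 to 2444 CPM with IL-6, against 5955 to 6177 CPM in WT. All 10 were lower in Cysltr1-/- in both cultures, with a median log2 difference of -1.54 and -1.69. Dendritic cell markers divided, with 5 higher and 3 lower in each of these cultures. Ccr7, a receptor of migrating dendritic cells, was higher by 0.76 in GM-CSF alone and by 0.78 with IL-6, while Cd209a differed by -1.27 and -1.61. Monocyte and macrophage markers were called lower for 9 of 10 genes in GM-CSF alone and for 5 of 10 with IL-6. Eosinophil markers summed to 183 to 204 CPM in Cysltr1-/- cultures in GM-CSF alone, against 636.9 to 719.5 CPM in WT. Their part in the genotype differences of the members was not tested. B cell markers were lower in Cysltr1-/-, at 93.6 to 95.2 CPM against 141 to 148 CPM in WT in GM-CSF alone and at 76.4 to 85.7 CPM against 118 to 123 CPM with IL-6, with 6 of 6 and 5 of 6 genes called. Epithelial and fibroblast markers summed to 1081 to 1110 CPM against 827 to 886 CPM in GM-CSF alone, and to 1073 to 1118 CPM against 1096 to 1162 CPM with IL-6. Of those 8 genes, 1 was called higher and 1 lower in GM-CSF alone, and 2 higher and 0 lower with IL-6. The part of these lists was not tested either. Summed markers of T and NK cells were at most 47.7 CPM and those of erythroid cells at most 8.90 CPM in any library.

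The balance between partner ligands was set by the ratio within each library, which does not depend on how libraries are scaled. Per kilobase of exon, Ccl17 to Ccl22 was 0.532 ± 0.186 in Cysltr1-/- cultures with EMT6 medium, 0.981 ± 0.0266 with IL-6 and 1.39 ± 0.0489 in GM-CSF alone (SD, n = 3 each). In WT cultures it was 0.312 ± 0.0750, 0.838 ± 0.0206 and 2.11 ± 0.253. On the log2 scale the ratio was lower with EMT6 medium by -2.11 and with IL-6 by -0.91, over both genotypes (exact stratified permutation p = 0.005 for each, two-sided, the smallest the 400 arrangements allow; 0.0075 after adjustment over 6 tests). The genotype difference averaged 0.12 (exact permutation p = 0.539), from 0.74 with EMT6 medium and 0.23 with IL-6 to -0.60 in GM-CSF alone. A test of an average over opposite signs could not detect a genotype difference that turns with the culture. Per kilobase, the genotypes did not overlap with IL-6 (0.954 to 1.01 in Cysltr1-/-, 0.823 to 0.861 in WT). Nor did they in GM-CSF alone (1.36 to 1.44 in Cysltr1-/-, 1.95 to 2.40 in WT), while with EMT6 medium they overlapped.

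For Ccl9 to Ccl6 the ratio per kilobase was 0.289 ± 0.0100 in Cysltr1-/- cultures with EMT6 medium, 0.152 ± 0.00381 with IL-6 and 0.143 ± 0.00128 in GM-CSF alone. The WT values were 0.299 ± 0.0102, 0.101 ± 0.000733 and 0.103 ± 0.00187 (SD, n = 3 each). It was higher with EMT6 medium by 1.27 on the log2 scale (exact permutation p = 0.005, the smallest possible; adjusted p = 0.0075), and with IL-6 it differed by 0.03 (exact permutation p = 0.29; adjusted p = 0.348). Cysltr1-/- cultures had a higher ratio than WT by 0.58 with IL-6 and by 0.47 in GM-CSF alone, and differed by -0.05 with EMT6 medium (exact permutation p = 0.004 over the 3 cultures, 8000 arrangements; adjusted p = 0.0075). The Cysltr1-/- and WT libraries overlapped in this ratio with EMT6 medium and did not overlap in either other culture. How often ratios of other gene pairs separate in this way was not counted.

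**Figure D4:**
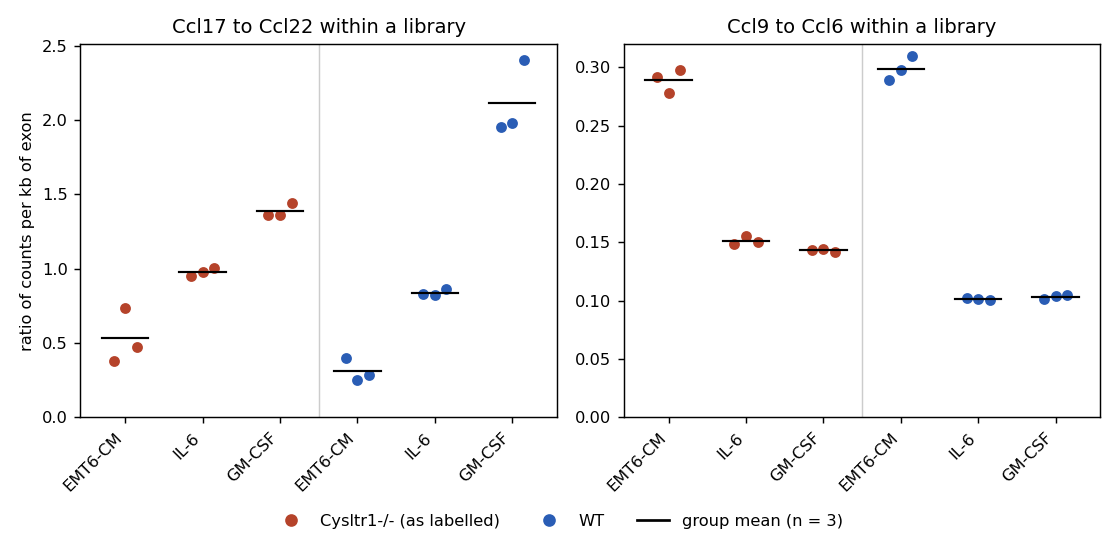
Ratio of Ccl17 to Ccl22 and of Ccl9 to Ccl6 per kilobase of exon in each library, by culture and labelled genotype; bars are means of 3 libraries. Ccl17 to Ccl22 averages 2.11 in WT in GM-CSF alone and 0.312 in WT with EMT6 medium, and Ccl9 to Ccl6 averages 0.289 (Cysltr1-/-) and 0.299 (WT) in the EMT6-medium groups.

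The members lie in 3 places in the genome (build mm10). Ccl22 at chr8:94745590-94751699 and Ccl17 at chr8:94810453-94812036 are on the forward strand, with Cx3cl1 between them, 20.3 kb from Ccl22 and 28.0 kb from Ccl17. Cx3cl1 encodes fractalkine, a membrane-bound chemokine of another class. Ccl6 (chr11:83587882-83593087) and Ccl9 (chr11:83572919-83578636) lie 9.25 kb apart on the reverse strand. The only member on its chromosome is Ccl24, at chr5:135569937-135573049 on the reverse strand.

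Cx3cl1 took the same directions as its flanking members. With EMT6 medium it was lower by -3.11 in Cysltr1-/- and by -2.57 in WT, and with IL-6 by -0.49 and -0.70 (edgeR adjusted p = 0.000926 and 0.00012 for IL-6). In Cysltr1-/- it was higher than in WT by 1.01 in GM-CSF alone and by 1.22 with IL-6. Ciapin1, the nearest gene beyond Ccl17 at 7.77 kb, changed with EMT6 medium by -0.34 in Cysltr1-/-, which turned to 0.27 with library totals alone, and by 0.34 in WT. With IL-6 it changed by 0.01 (edgeR adjusted p = 0.962) and 0.17 (edgeR adjusted p = 0.0131). Between genotypes it took the side of Ccl17, higher in Cysltr1-/- by 0.41 in GM-CSF alone (edgeR adjusted p = 6.88e-09) and by 0.25 with IL-6 (edgeR adjusted p = 8.81e-05). Ccdc102a, 90.8 kb from Ccl17 and chosen after its values were seen, was lower with EMT6 medium by -3.08 in Cysltr1-/- and by -2.99 in WT, and with IL-6 by -0.43 and -0.55. Between genotypes it differed by -0.21 in GM-CSF alone (edgeR adjusted p = 0.0407; 0.445 with library totals alone) and by -0.08 with IL-6 (edgeR adjusted p = 0.474). Within 100 kb of Ccl17 lie 7 protein-coding genes, Ccl22 and Cx3cl1 among them. With EMT6 medium, 5 were called lower and 0 higher in Cysltr1-/-, and 4 lower and 1 higher in WT. With IL-6, 3 were lower and 0 higher in Cysltr1-/-, and 3 lower and 2 higher in WT. Of all genes, 32.9% and 34.5% were lower with EMT6 medium, and 8.78% and 11.3% with IL-6. Among genes with a mean of at least 5 CPM, 69.3% and 71.9% were lower with EMT6 medium, and 20.2% and 23.7% with IL-6. Ccl3, 54.8 kb from Ccl6, was higher with EMT6 medium by 3.92 in Cysltr1-/- and by 4.50 in WT, in the opposite direction to Ccl6 and Ccl9.

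**Figure D5:**
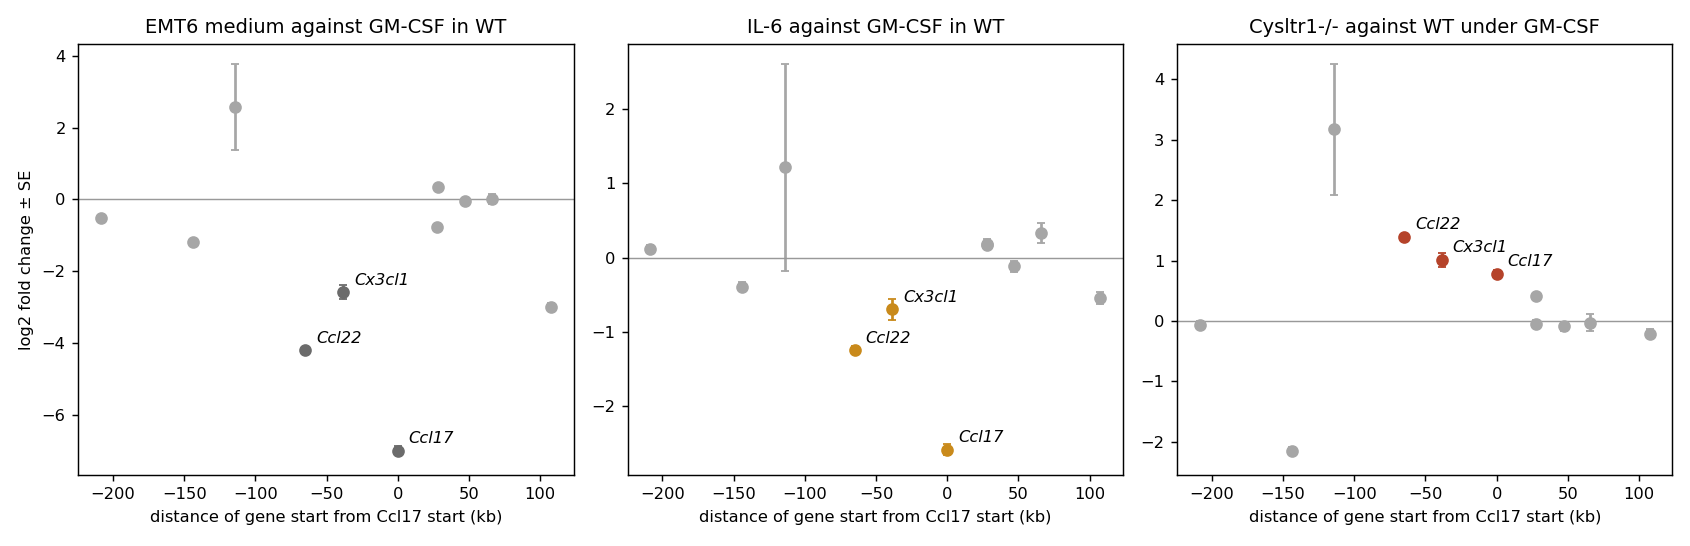
Log2 fold change (± SE) of Ccl22, Cx3cl1, Ccl17 and the other tested genes near them, by distance of the gene start from that of Ccl17 in kb, for EMT6 medium and for IL-6 against GM-CSF in WT and for Cysltr1-/- against WT in GM-CSF alone. The 3 coloured genes are lower with EMT6 medium and with IL-6 and higher in Cysltr1-/- than in WT; grey genes are the others, and the wide bar is a gene with few counts.

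Ccl17 and Ccl22 changed in the same directions, though by unlike amounts. The sequence before each start is shown, from RefSeq's promoter table on GRCm38.p6, forward strand. The Ccl17 stretch is the 250 bases chr8:94810203-94810452. For Ccl22 it is the 156 bases chr8:94745434-94745589, which stop before the annotated gene. Capitals mark matches to TTCNNNGAA, a spacing used by STAT5 and STAT3, or to the STAT6-type motif, TTC and GAA set 4 bases apart. GM-CSF signals through STAT5, IL-6 through STAT3 and IL-4 and IL-13 through STAT6.
Ccl17: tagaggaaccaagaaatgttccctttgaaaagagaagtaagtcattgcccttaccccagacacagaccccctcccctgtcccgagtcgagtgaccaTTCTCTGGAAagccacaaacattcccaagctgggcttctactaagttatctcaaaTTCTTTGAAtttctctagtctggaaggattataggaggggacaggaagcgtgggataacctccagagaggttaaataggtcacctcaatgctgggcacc
Ccl22: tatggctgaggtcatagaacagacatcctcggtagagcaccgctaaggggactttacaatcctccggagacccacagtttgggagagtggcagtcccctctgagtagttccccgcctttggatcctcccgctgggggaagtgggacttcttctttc
The Ccl17 stretch holds 1 match of each kind, at bases 99 to 91 and 154 to 145 before the start. No match to either, nor to the kappa-B consensus, lies in the 250 bases before the RefSeq start of Ccl22. Matches to TTCNNNGAA are found in 7.02% of 32851 promoters of that length, to the STAT6-type motif in 5.85% and to the kappa-B consensus in 5.00%, on either strand (the STAT forms read the same on both). Of the other members, Ccl9 has a kappa-B match at 35 to 26 before its start and Ccl6 has none of the 3. Ccl24 was not searched. Such a match is a description of letters.

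Receptors of the members were measured in the same cells. Ccr1, which binds CCL6 and CCL9, averaged 125, 508 and 494 CPM in Cysltr1-/- cultures with EMT6 medium, IL-6 and GM-CSF alone, against 168, 644 and 520 CPM in WT. It was lower with EMT6 medium, by -1.99 in Cysltr1-/- and by -1.63 in WT. It rose with IL-6 in WT (0.31 ± 0.05, edgeR adjusted p = 6.04e-06), while in Cysltr1-/- it changed by 0.04 (edgeR adjusted p = 0.705). The interaction was -0.27 (edgeR adjusted p = 0.0144). Ccr4, the receptor of CCL17 and CCL22, had group means of 6.23 to 10.2 CPM and changed with EMT6 medium by -0.29 in Cysltr1-/- and by -0.38 in WT, directions that turned with library totals alone, to 0.32 and 0.12. Ccr3, that of CCL24, had group means of 1.85 to 4.15 CPM, and its change of -0.48 in Cysltr1-/- turned to 0.13 with library totals. Its EMT6-medium libraries had 24 to 54 counts in Cysltr1-/- and 22 to 49 in WT, where unassigned reads alone would give 23.45 to 30.8 and 17.0 to 19.1. Ackr2, a scavenging receptor, had 0 to 40 counts per library, and in the EMT6-medium libraries unassigned reads alone would give 16.2 to 29.4.

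Among 17 genes of IL-4/IL-13 and GM-CSF signalling, 1 was higher and 14 were lower with EMT6 medium in Cysltr1-/-, with 2 higher and 12 lower in WT. Those lower counts stand beside 32.9% and 34.5% of all genes and 69.3% and 71.9% of genes with a mean of at least 5 CPM, so they are near the share among expressed genes. With library totals alone, 6 were higher and 11 lower in each genotype. Their median log2 change was -1.69 in Cysltr1-/- and -1.38 in WT. Il13, which encodes the STAT6-activating cytokine IL-13 and was chosen after its values were seen, was the gene called higher in both. It averaged 6.97 CPM with EMT6 medium against 1.33 CPM in GM-CSF alone in Cysltr1-/- (log2 change 2.37 ± 0.20, edgeR adjusted p = 1.97e-14), and 3.85 CPM against 0.87 CPM in WT (2.05 ± 0.23, edgeR adjusted p = 6.78e-11). The other gene higher in WT was Il2rg, a shared receptor chain, by 0.22, a call lost with DESeq2 size factors. Socs2, a feedback inhibitor induced by STAT5, changed by -3.10 ± 0.06 in Cysltr1-/- and by -2.96 ± 0.06 in WT. Irf4, a transcription factor of dendritic cells and alternatively activated macrophages, changed by -3.14 and -2.22. Csf2ra, the ligand-binding chain of the GM-CSF receptor, changed by -2.60 and -2.30. Jak2, the kinase bound to that receptor, fell by 2.12 in Cysltr1-/-, and Cish, another STAT5-induced inhibitor, fell by 1.93 in WT.

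With IL-6 the list divided, with 5 higher and 6 lower in Cysltr1-/- and 7 higher and 5 lower in WT. Socs2 was lower by -0.56 in Cysltr1-/- and by -0.70 in WT. Il13ra1, a chain of the IL-13 receptor, was higher by 0.54 and 0.84, and Jak3 by 0.62 and 0.73. Irf4 changed by -0.44 in Cysltr1-/-, and the receptor gene Il4ra by 0.58 in WT.

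By labelled genotype, 4 genes of this list were higher in Cysltr1-/- in GM-CSF alone and 5 lower, 4 and 7 with IL-6, and 2 and 14 with EMT6 medium. With library totals alone these were 9 and 2, 7 and 6, and 2 and 8. Socs2 was higher by 0.50 in GM-CSF alone and by 0.64 with IL-6. In GM-CSF alone Irf4 differed by 0.34, Jak2 by 0.25 and Stat5b by -0.30. With IL-6, Il13ra1 differed by -0.52, Jak3 by -0.45 and Stat6, the IL-4 response factor, by -0.34. With EMT6 medium, Csf2rb, the shared chain of the GM-CSF receptor, differed by -0.81, Il4ra by -0.70, Stat6 by -0.54 and Csf2rb2 by -0.46.

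Other type 2 or homeostatic chemokines were scarce. Of 12 gene entries in that list, 3 passed the filter, Ccl8, Ccl25 and Ccl1. Ccl8, which recruits T helper 2 cells through CCR8 in mice, was higher with EMT6 medium and with IL-6 than in GM-CSF alone. Ccl17 and Ccl22 were lower in both. By labelled genotype, the mean of Ccl8 was higher in Cysltr1-/- in each culture, as were those of Ccl17 and Ccl22. It averaged 63.3, 123 and 8.55 CPM in Cysltr1-/- cultures with EMT6 medium, IL-6 and GM-CSF alone, against 45.3, 72.7 and 2.96 CPM in WT. With IL-6 it rose by 3.84 ± 0.08 in Cysltr1-/- and by 4.58 ± 0.09 in WT on the log2 scale. Ccl1 was at the level of unassigned reads with EMT6 medium, at 15 to 33 counts in Cysltr1-/- libraries against 17.0 to 22.3 expected and 11 to 20 counts in WT libraries against 12.3 to 13.9 expected. Ccl25, a thymic and gut chemokine, changed with EMT6 medium by 0.33 in Cysltr1-/- (edgeR adjusted p = 0.0163), which turned to -0.10 with unassigned reads subtracted, and by -0.25 in WT (edgeR adjusted p = 0.0879). Ccl11, Ccl19, Ccl20, Ccl21a, Ccl26 and Ccl27a had at most 5 counts in any library, and Ccl28 at most 9.

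Likeness of pattern was taken as Pearson's r of log2 CPM among 10673 genes, as a description over libraries that share their culture and genotype groups. Over all 18 libraries, Ccl17 was most like Lpl (0.994), Socs2 (0.992) and Fgfr1 (0.990), and Ccl22 most like Igfbp4 (0.996), Chil3 (0.992) and Retsat (0.991). Ccl24 was most like Pgp (0.991), Srsf3 (0.990) and Alox15 (0.989). Ap5b1, Nagk and Oxct1 were closest to Ccl6 (each 0.998), and Praf2, Nus1 and Tpt1 to Ccl9 (0.986 to 0.988). These values are led by the contrast of EMT6 medium with the rest. Over the 12 libraries without EMT6 medium, the closest genes were Rpn1 (0.993), Ccdc80 (0.992) and Ccl5 (0.985) for Ccl17, and Mgl2 (0.997), Dcstamp (0.995) and Ftsj3 (0.994) for Ccl22. Mgl2 encodes a lectin of alternatively activated macrophages and dendritic cells. For Ccl24 they were Tmem160, Creld2 and Ndufa4 (0.952 to 0.982), for Ccl6 Cdc42ep3, Lyl1 and Ndc80 (0.981 to 0.988), and for Ccl9 Kcnn4 (0.995), Pdgfa (0.986) and Bcar3 (0.984). Between members, Ccl17 and Ccl22 had 0.928 over those 12 libraries, and Ccl6 and Ccl9 had -0.791.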

How the data were processed

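Reads were aligned with HISAT2 2.1.0 and counted with HTSeq 0.13.5 on mm10, with DESeq2 1.34.0 also named, per the submitters' processing notes. The annotation and strand setting of the counting are not given in the sources used here, so reads of overlapping antisense genes cannot be told apart. The authors deposited raw counts per gene and library; these were analysed, and their normalized table was not used. Gene IDs were matched to GENCODE M21 (55536 of 55536; 55450 with a symbol). HTSeq summary lines, 97 spike-in entries (all at 0) and 26248 numbered entries without a gene (0.0399 to 0.446% of counts on features) were left out. Counts (9583728 to 31989342 per library, which limit precision) were fitted with edgeR 4.0.16 in R 4.3.3: quasi-likelihood F test, TMM scaling, filterByExpr, 6 group means over 18 libraries, Benjamini-Hochberg adjustment over 28334 genes, threshold 0.05, 11 comparisons; the common biological coefficient of variation was 0.048. SE is the log2 change divided by the root of F. Between-gene comparisons use CPM per kilobase of union exon. Ratios used a pseudocount of 0.5 counts and exact permutation within strata. Expected unassigned counts spread reads outside exons evenly over the non-exonic genome. The fit was tested on simulated data for 1 comparison, IL-6 against GM-CSF in WT. Of 50 planted changes at each size, it recovered 11 at 1.2-fold, 28 at 1.5-fold, 35 at 2-fold and 48 at 4-fold. It made 7 false calls among 24470 genes. No replicate pair agreed within sampling noise (chi-square per degree of freedom 1.63 to 7.51). Alternatives were DESeq2 1.42.0 and its size factors in edgeR, library totals, no filter, a filter at a mean of 5 CPM, unassigned reads subtracted, leaving 1 library out at a time, a block for replicate number, fits of just those groups being compared and, chosen after seeing the data, the fit without EMT6-medium libraries. Named beside the members are every receptor gene, the 4 genes with the smallest p in each other list described, the 3 genes most like each member and the nearest neighbours. Members and lists were chosen with earlier results of these data known.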

Additional observations from a re-analysis of the deposited data

Results flagged for a closer look

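The effect of culture differed between labelled genotypes, by the edgeR interaction test over 28334 genes, for each of the 5 members in 1 or both cultures and for the receptor gene Ccr1. That test called 7.38% of all genes for IL-6 and 25.6% for EMT6 medium. Among genes with a mean of at least 5 CPM, it called 6.25% above 0 and 10.8% below for IL-6. For EMT6 medium it called 21.1% of these above 0 and 28.9% below. For IL-6 against GM-CSF, the change in Cysltr1-/- minus that in WT was 1.00 on the log2 scale for Ccl17 (-1.59 in Cysltr1-/-, -2.59 in WT), 0.86 for Ccl24 (-0.06 and -0.92) and -0.27 for Ccr1 (0.04 and 0.31). For EMT6 medium against GM-CSF it was -1.18 for Ccl9 (-1.74 in Cysltr1-/-, -0.56 in WT), -1.10 for Ccl22 (-5.29 and -4.20), -0.66 for Ccl6 (-2.75 and -2.08), 0.82 for Ccl24 (-2.68 and -3.50) and -0.36 for Ccr1 (-1.99 and -1.63). In the Cysltr1-/- cultures, the libraries with EMT6 medium also had more unassigned reads (50.2% against 36.2% in WT) and fewer gene counts (a mean of 10.9 M against 15.9 M), and the part of these in the EMT6-medium values was not tested. Groups of 3 libraries are too small for a test of single outlying libraries.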

How the results depend on the processing

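Of 61 results on members and ratios, 47 kept their direction and side of the threshold under every alternative run, and 14 changed under at least 1. Values below are log2 differences. Under DESeq2 size factors, Ccl6 between genotypes in GM-CSF was -0.135 and Ccl22 between genotypes in EMT6 medium 0.194, neither called. Library totals ended the call of Ccl9 for EMT6 medium against GM-CSF in WT (-0.0595), of Ccl9 for EMT6 medium against IL-6 in WT (-0.0324) and of Ccl6 between genotypes in GM-CSF (-0.0384). Without a low-count filter, Ccl9 for IL-6 in WT turned to 0.0157 (not called), Ccl6 between genotypes in GM-CSF was -0.0724 and Ccl22 between genotypes in EMT6 medium 0.154, both uncalled, and the IL-6 interaction of Ccl6 was called at -0.201. With a mean of at least 5 CPM, Ccl6 between genotypes in GM-CSF was -0.0324. With unassigned reads subtracted, Ccl6 for IL-6 in Cysltr1-/- was -0.111 and between genotypes in GM-CSF -0.0975, both uncalled. Fitting only the groups compared gave an uncalled 0.220 for Ccl22 between genotypes in EMT6 medium and a called IL-6 interaction of 0.180 for Ccl22, as did the fit without EMT6-medium libraries (0.180). DESeq2 called Ccl9 for IL-6 in Cysltr1-/- (-0.101) and the IL-6 interaction of Ccl6 (-0.206) and did not call Ccl22 between genotypes in EMT6 medium (0.193). The cause of these changes was not tested.

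Leaving out 1 library at a time gave ranges of -0.0180 to 0.0266 for Ccl6 with IL-6 in WT, -0.101 to 0.0293 for Ccl24 and -0.160 to -0.116 for Ccl6 with IL-6 in Cysltr1-/-, 0.551 to 1.16 for Ccl17, 0.114 to 0.341 for Ccl22 and 0.308 to 0.622 for Ccl24 between genotypes in EMT6 medium, and -0.216 to 0.396 for the EMT6-medium interaction of Ccl17. The lowest of the last came without Cysltr1-/- EMT6-medium replicate 2.

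Restricting to genes with a mean of at least 5 CPM lowered the number of genes called, since fewer were tested: for EMT6 medium against GM-CSF to 12903 (against 24700) in Cysltr1-/- and 12394 (against 23046) in WT, for EMT6 medium against IL-6 to 12810 (against 24435) in Cysltr1-/- and 12508 (against 23190) in WT, and between genotypes in EMT6 medium to 9569 (against 14749). Replicate numbers did not pair the samples (correlations of same-numbered deviations from -0.347 to 0.289). A replicate block changed no call on a member, for example -2.58 for Ccl17 with IL-6 in WT. Depth limits Ccl17 with EMT6 medium, at 9 to 27 counts per library.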

Other observations

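Arl2bp, a protein-coding gene within 100 kb of Ccl22 that was picked out after its values were seen, differed between Cysltr1-/- and WT by -2.15 ± 0.07 on the log2 scale in GM-CSF alone and by -1.86 ± 0.07 with IL-6 (SE, n = 3 per group), on the opposite side to Ccl22 and Cx3cl1. The share of CC chemokine CPM per kilobase held by Ccl8 was 6.05 ± 0.282% in Cysltr1-/- cultures with IL-6 against 3.36 ± 0.0652% in WT cultures with IL-6, and 0.390 ± 0.00889% in Cysltr1-/- cultures in GM-CSF alone against 0.136 ± 0.0287% in WT (SD, n = 3 each).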
